A study of Bos taurus with 37 samples.

Results

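The adult ear skin fibroblasts that served as nuclear donors were compared with the blastocysts cloned from them, in cattle (Bos taurus). In somatic cell nuclear transfer (SCNT), a single fibroblast is fused with an oocyte whose own nucleus has been removed, and the resulting embryo is cultured to the blastocyst stage. The comparison and the gene lists below were chosen with earlier results of these data known. The comparison took in 14 of the 37 libraries of the series, picked out by their labels. These were 1 library of male and 1 library of female donor fibroblasts, each from a population of cultured cells that had been passaged before nuclear transfer, and 6 male and 6 female SCNT blastocysts (SCNT-BLs), each library from 1 whole embryo. The other 23 libraries, from 12 blastocysts of in vitro fertilization (IVF-BLs) and 11 sham nuclear transfer blastocysts (sham NT-BLs), which kept their own zygotic genome, are outside the main fit and serve for their levels, for the choice of one gene set by IVF-BL medians and for one alternative fit. The labels give sex and source (donor, SCNT, IVF or sham) and neither breed nor age in years, and no transgene separates the groups. The study activated the fused SCNT eggs and treated sham zygotes with ionomycin and then dimethyl-aminopurine. Its text describes no such step for the fibroblasts or IVF-BLs, so activation cannot be told apart from nuclear transfer here. The libraries of each sex were sequenced together on a flow cell of their own, so sex, donor animal and flow cell cannot be told apart.

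An ear skin fibroblast is a mesenchymal cell that spreads on a substrate and secretes the collagens and proteoglycans of connective tissue. A blastocyst is built of the trophectoderm, an epithelium sealed by tight junctions that pumps fluid into the cavity, and of an inner cell mass that holds the pluripotent cells and the precursors of the primitive endoderm. For a clone to reach this stage, the fibroblast nucleus has to stop transcribing its own program and start the embryonic ones, and the question the comparison addresses is which genes stood low and which stood high once that had happened. The embryo also carries the cytoplasm of the oocyte, and the fibroblasts were measured as cultured cells, so cell type, culture and nuclear transfer itself cannot be told apart in these differences. A whole blastocyst mixes its cell types, and fewer cells of a type and less RNA per cell cannot be told apart in it.

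Levels are FPKM, fragments scaled by exon length and by the mapped depth of the library, so that levels can be compared between genes. Differences are SCNT-BLs minus fibroblasts in log2(FPKM + 1), 12 libraries against 2, so that a negative value means a lower level in SCNT-BLs, and each ± is the standard error of that difference in limma. A gene was called when its adjusted p from limma was under 0.05 and the difference was at least 1 in the same direction both for male SCNT-BLs against male fibroblasts and for female SCNT-BLs against female fibroblasts. Since each fibroblast population gave 1 library, the p-values rest almost wholly on the spread between SCNT-BLs, and the 2 fibroblast libraries stand for 2 cell populations and not for fibroblasts at large. The added 1 FPKM sets the size of a difference wherever a gene is near 0, and genes listed at 0 in every library of a kind are given without a difference.

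The labels describe the material of every library, fibroblasts included, as blastocysts, but the defining markers separated the libraries titled as donor cells from the embryos. COL1A1, a chain of type I collagen, stood at 2112 FPKM in male fibroblasts and 2141 FPKM in female ones, against 0 to 0.786 FPKM (median 0.116) in male and 0.0897 to 1.64 FPKM (median 0.541) in female SCNT-BLs. COL1A2, the other chain, stood at 3929 FPKM in male fibroblasts and 1668 FPKM in female ones. It was measurable in every embryo, at 1.7 to 6.42 FPKM (median 2.51) in male and 1.2 to 6.83 FPKM (median 3.22) in female SCNT-BLs. COL1A2 medians were 4.48 and 3.56 FPKM in male and female IVF-BLs and 9.99 and 4.10 FPKM in male and female sham NT-BLs. CDX2, the transcription factor of the trophectoderm, showed the opposite order, with 0.291 FPKM in male fibroblasts and 0 FPKM in female ones and 30.1 to 58.8 FPKM (median 45.2) in male and 15.7 to 27.6 FPKM (median 21.2) in female SCNT-BLs. POU5F1, a core factor of pluripotency, likewise stood at 0.107 FPKM in male fibroblasts and 1.58 FPKM in female ones and at 35.1 to 80.3 FPKM (median 53.8) in male and 27.3 to 67.2 FPKM (median 48.1) in female SCNT-BLs. No SCNT-BL overlapped a fibroblast library in any of these 4 genes.

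The libraries differed in breadth. The genes over 1 FPKM per library numbered 11119 in male and 11382 in female fibroblasts. They ran from 10037 to 10443 in male clones and from 9616 to 11000 in female clones, a mean difference of -985 (exact two-sided permutation test within sex, p = 0.0204, the smallest that its 49 assignments can give). Within a sex the difference was -938 in males and -1033 in females (exact permutation p = 0.143 in each, the smallest that 7 libraries allow). The lowest counts were those of female SCNT-BL replicates 5 (9728) and 6 (9616), which also had the least RN18S1, the 18S ribosomal RNA, at 5693 and 2710 FPKM, and the lowest relative depth, 0.382 and 0.525, as read from their low values. RN18S1 elsewhere ran from 25067 to 61445 FPKM in SCNT-BLs and was at 10687 and 30746 FPKM in male and female fibroblasts. The part of depth and of RN18S1 in the results was not tested, but the counts of genes without these 2 embryos are given below. Across 11462 autosomal genes the 2 fibroblast libraries correlated at r = 0.894, male fibroblasts with male SCNT-BLs at 0.491 to 0.524, and female fibroblasts with female SCNT-BLs at 0.405 to 0.476, whereas pairs of SCNT-BLs of one sex correlated at 0.852 to 0.943. These correlations run across genes, which are not independent replicates, and are a description.

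Among the 21610 autosomal genes, 15130 passed the limit on low values, a mean over 0.1 FPKM in the 14 libraries, with OGDHL (0.10002) just inside and LOC783893 (0.09995) just outside it. Of these, 3024 (20.0%) were lower and 1659 (11.0%) were higher in SCNT-BLs in both sexes. A further 1765 genes passed the adjusted p but not the limit of 1 in both sexes. The balance between the directions depended on scaling. The median difference over all genes tested was -0.16, and centring each library on its median moved it to 0.36, with 2044 genes lower and 2775 higher. Quantile normalization moved it to 0.12, with 2303 genes lower and 2181 higher. The genes called lower held 44.9% of the summed FPKM in male and 43.3% in female fibroblasts and 5.83% to 7.34% in SCNT-BLs, and those called higher held 4.05% and 3.46% in fibroblasts and 26.1% to 31.6% in SCNT-BLs. The same libraries chose these genes, so the direction of the shares follows from the calls. Over all genes tested, each fibroblast library lay above all 6 SCNT-BLs of its sex in 3982 (26.3%) and below them in 2313 (15.3%), which takes in 2908 of the genes called lower and 1595 of those called higher.

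**Figure D1:**
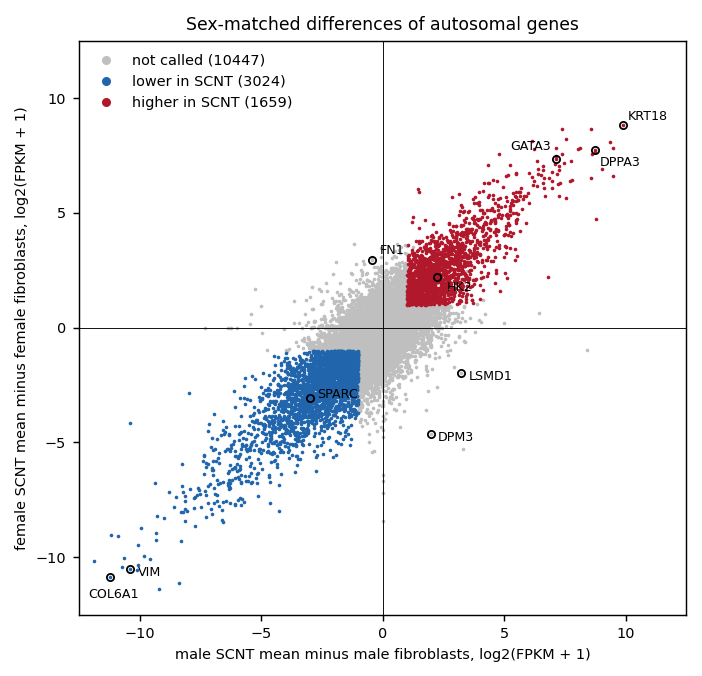
Each point is 1 autosomal gene, with the male difference (mean of 6 male SCNT-BLs minus male fibroblasts) on the x axis and the female difference on the y axis, both in log2(FPKM + 1). The 3024 genes lower in SCNT-BLs lie at the lower left and the 1659 higher at the upper right, and the 10447 genes not called fill the centre and a few outlying places off the diagonal, such as DPM3 and LSMD1.

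Smaller classes within these describe genes that crossed from one end of the scale to the other. A gene was counted as silenced when it was called lower with over 5 FPKM in both fibroblast libraries and a median under 1 FPKM in SCNT-BLs of each sex, and as activated when it was called higher with under 1 FPKM in both fibroblast libraries and a median over 5 FPKM in SCNT-BLs of each sex. By these limits 614 genes (4.06% of those tested) were silenced and 298 (1.97%) were activated. Without female SCNT-BL replicates 5 and 6, an alternative chosen after seeing the data, the counts were 3027 lower, 1702 higher, 590 silenced and 308 activated. Without the male fibroblasts 930 genes met the limits for silenced, against 726 without the female fibroblasts, with 1 fibroblast library fewer to meet them. The silenced genes held 8.60% of the summed FPKM in male and 8.50% in female fibroblasts and 0.0362% to 0.0894% in SCNT-BLs. The activated genes held 0.0108% and 0.0107% in fibroblasts and 2.26% to 4.06% in SCNT-BLs. A single embryo had 51 to 115 of the 614 silenced genes over 1 FPKM (median 62), and 293 to 298 of the 298 activated ones. The limits of the classes were set on these same libraries, so the direction of these shares and counts was fixed by the choice. They describe the classes and are no further evidence for them.

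The same genes were read in embryos that never held a fibroblast nucleus. Of the silenced genes, 500 (81.4%) had medians under 1 FPKM in IVF-BLs of both sexes and 512 (83.4%) in sham NT-BLs, and in neither did any have medians over 5 FPKM in both sexes. Of the activated genes, 274 (91.9%) had medians over 5 FPKM in IVF-BLs of both sexes and 244 (81.9%) in sham NT-BLs. These limits were not counted over all genes tested, many of which may meet them, so the shares have no background beside them. To look for fibroblast transcripts in clones without using the clones to choose them, 315 autosomal genes were taken with over 10 FPKM in both fibroblast libraries and medians under 1 FPKM in IVF-BLs of each sex. In SCNT-BLs 292 of them (92.7%) had medians under 1 FPKM in both sexes, and in sham NT-BLs, which the choice did not use either, 281 (89.2%) did. None had medians over 5 FPKM in SCNT-BLs of both sexes. Between 22 and 44 of the 315 genes were over 1 FPKM in a male SCNT-BL and between 29 and 49 in a female one, beside 33 to 62 in male and 36 to 42 in female sham NT-BLs. The ranges of SCNT-BLs and sham NT-BLs overlapped in each sex, and this count was not tested.

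**Figure D2:**
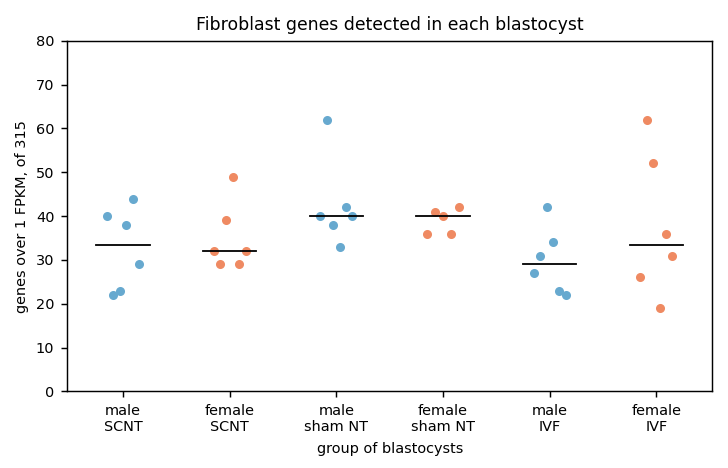
Points are single blastocysts, the y axis counts how many of 315 fibroblast genes were over 1 FPKM in each, and bars are group medians. SCNT-BLs lie at 22 to 49 genes, within the span of 19 to 62 of the IVF-BLs, whose medians entered the choice of the genes, and sham NT-BLs lie at 33 to 62.

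The extracellular matrix held 7 of the 12 steepest falls. Of 34 matrix genes tested, 32 were lower in SCNT-BLs and none higher, with 23 of them silenced. The median difference was -6.63, beside -0.16 for all genes. Over all genes tested 20.0% were lower and 11.0% higher, and this and each later list is to be read beside these shares. COL3A1, the chain of type III collagen, stood at 3848 FPKM in male fibroblasts and 1175 FPKM in female ones, against 0 to 0.0251 FPKM (median 0) in male and 0 to 0.0548 FPKM (median 0.00856) in female SCNT-BLs, a difference of -11.04 ± 0.35 with adjusted p = 3.1e-12. Most embryos were thus listed at or next to 0. COL6A1, a chain of type VI collagen, was measured at 2641 and 2896 FPKM in male and female fibroblasts and at 0 to 0.305 FPKM (median 0.0503) in male and 0.0527 to 4.09 FPKM (median 0.245) in female SCNT-BLs, a difference of -11.06 ± 0.47. Female replicate 5 was the 1 embryo above 1 FPKM in COL6A1. COL6A2, its partner in the same fibril, was measured at 1156 and 1608 FPKM in male and female fibroblasts and at 0 to 1.58 FPKM (median 0.489) in male and 0.121 to 1.75 FPKM (median 0.362) in female SCNT-BLs, a difference of -9.81 ± 0.41. The 2 chains were thus of one order of size in the fibroblasts and close to 0 in the embryos. TNC, the glycoprotein tenascin C, had 1656 and 1172 FPKM in male and female fibroblasts and 0 to 0.34 FPKM in the 12 SCNT-BLs (-10.34 ± 0.29). FMOD, the collagen-binding proteoglycan fibromodulin, had 1371 and 1939 FPKM in male and female fibroblasts and 0 to 1.95 FPKM in the 12 SCNT-BLs (-10.20 ± 0.47). MMP2, a gelatinase that remodels matrix, fell from 788 and 814 FPKM in male and female fibroblasts to 0 to 1.33 FPKM in the 12 SCNT-BLs (-9.30 ± 0.39). In all 6 genes the lowest fibroblast library was far above the highest embryo.

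Some matrix genes were called lower but not silenced, and 2 were not called. THBS1, the adhesive protein thrombospondin 1, had 5184 and 879.6 FPKM in male and female fibroblasts and 0 to 7.9 FPKM (median 1.02) in male and 0.11 to 1.84 FPKM (median 0.677) in female SCNT-BLs (-10.10 ± 0.68). It was called lower but not silenced, since the male median passed 1 FPKM. SPARC, a collagen-binding protein also made by early embryonic epithelia, was at 5981 FPKM in male fibroblasts and 3593 FPKM in female ones and still at 424 to 1303 FPKM (median 774) in male and 230.4 to 1436 FPKM (median 361) in female SCNT-BLs. SPARC was called lower (-3.03 ± 0.54, adjusted p = 2.6e-04 in limma), yet every SCNT-BL had a high level. Its medians were 574 and 667 FPKM in male and female IVF-BLs and 373 and 556.5 FPKM in male and female sham NT-BLs. FN1, fibronectin, was not called (1.25 ± 0.61, adjusted p = 0.11), with 3732 FPKM in male fibroblasts and 506 FPKM in female ones and 1336 to 4588 FPKM (median 2674) in male and 2608 to 6057 FPKM (median 3816) in female SCNT-BLs. The female fibroblast library lay below every female SCNT-BL in FN1, and the male one lay within the range of the male SCNT-BLs. Leaving out the male fibroblasts made FN1 higher in SCNT-BLs (2.93, adjusted p = 0.0029 in limma) and leaving out the female fibroblasts turned the difference to -0.44, so the direction of FN1 rests on which fibroblast library is used. MFAP5, a microfibril protein, was the other matrix gene tested and not called (-1.53, adjusted p = 0.086).

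Of 30 transcription factors of mesenchyme tested, 20 were lower, 11 of them silenced, and 1 was higher (median difference -2.71). Without the male fibroblasts 19 were lower and 2 higher. PRRX1, a homeobox factor of limb and skin mesenchyme, stood at 932 FPKM in male fibroblasts and 1044 FPKM in female ones and at 0 to 0.164 FPKM (median 0) in male and 0 to 0.259 FPKM (median 0) in female SCNT-BLs, a difference of -9.89 ± 0.28 with adjusted p = 2.0e-12. More than 1 embryo of each sex was listed at 0. ZEB2, a repressor of E-cadherin that marks mesenchymal cells, stood at 135 FPKM in male fibroblasts and 240.2 FPKM in female ones and was listed at 0 in all 12 SCNT-BLs. SNAI2, a relative of the same function, was lower by less (-3.76), as was the basic helix-loop-helix factor TWIST1 (-3.14). RUNX1 and ETS1, which many cell types use, were called lower (-1.95 and -2.38) but lost the call without the male fibroblasts. NR2F1, an orphan nuclear receptor, had 4.43 FPKM in male fibroblasts and 0.56 FPKM in female ones and was not called, its female difference being under 1. TBX3, a T-box factor used in limb mesenchyme and in early embryos alike, was the 1 member that rose, from 1.01 FPKM in male fibroblasts and 1.88 FPKM in female ones to 86 to 137 FPKM (median 110.2) in male and 125 to 157 FPKM (median 140.1) in female SCNT-BLs (5.69 ± 0.23).

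HOX genes, which record body position in adult fibroblasts, were mostly near 0 in fibroblasts and embryos alike. Of 21 tested, 2 were lower and 1 higher, and 18 were not called (median difference 0.33). Median centring left 1 lower and 2 higher. HOXC6 was the only one over 5 FPKM in fibroblasts, at 46 FPKM in male fibroblasts and 37.2 FPKM in female ones, and stood at 0.214 to 1.66 FPKM (median 0.691) in male and 0.353 to 9.4 FPKM (median 6.53) in female SCNT-BLs (-3.74 ± 0.65). Female embryos other than 1 thus had more HOXC6 than the male ones. HOXA2 was lower from a low level (4.28 FPKM in male fibroblasts and 1.49 FPKM in female ones, difference -1.82), a call lost under median centring and under quantile normalization. HOXB9 was the higher one, at 0.338 FPKM in male fibroblasts and 1.53 FPKM in female ones and 6.16 to 17.5 FPKM (median 11.2) in male and 3.83 to 31.2 FPKM (median 9.51) in female SCNT-BLs (2.59 ± 0.61), and it lost the call without the male fibroblasts (2.01, adjusted p = 0.11 in limma).

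The cytoskeleton of the fibroblast fell in part. VIM, the intermediate filament vimentin that marks mesenchymal cells, was at 1409 FPKM in male fibroblasts and 1504 FPKM in female ones and at 0 to 0.196 FPKM (median 0) in male and 0 to 0.123 FPKM (median 0) in female SCNT-BLs, a difference of -10.46 ± 0.28 with adjusted p = 2.0e-12. Among 22 contractile and intermediate filament genes tested 15 were lower, 5 of them silenced, and 2 were higher (median difference -2.44), and under median centring 11 were lower and 3 higher. ACTA2, the actin of myofibroblasts, stood at 2922 FPKM in male fibroblasts and 1325 FPKM in female ones and at 22.2 to 304 FPKM (median 49.4) in male and 46.1 to 99.9 FPKM (median 85.2) in female SCNT-BLs (-4.74 ± 0.73). TPM1, a tropomyosin, stood at 1744 FPKM in male fibroblasts and 1270 FPKM in female ones and at 80.8 to 191 FPKM (median 132) in male and 38.2 to 138 FPKM (median 109.8) in female SCNT-BLs (-3.76 ± 0.39). Both were called lower, and neither came near 0 in any embryo. CALD1, the actin-binding caldesmon (-2.92), CSRP1, a LIM domain protein (-4.36), and MYL9, a myosin light chain (-1.46), were called lower too, MYL9 losing its call under both scalings. TAGLN, transgelin, was silenced instead (-5.24). CSRP2, the relative of CSRP1, rose from 41 FPKM in male fibroblasts and 27 FPKM in female ones to 149 to 471 FPKM (median 263) in male and 124 to 383 FPKM (median 187) in female SCNT-BLs (2.75 ± 0.40), and MYLK, the myosin light chain kinase, was the other gene that was higher (1.68, not called without the female fibroblasts).

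**Figure D3:**
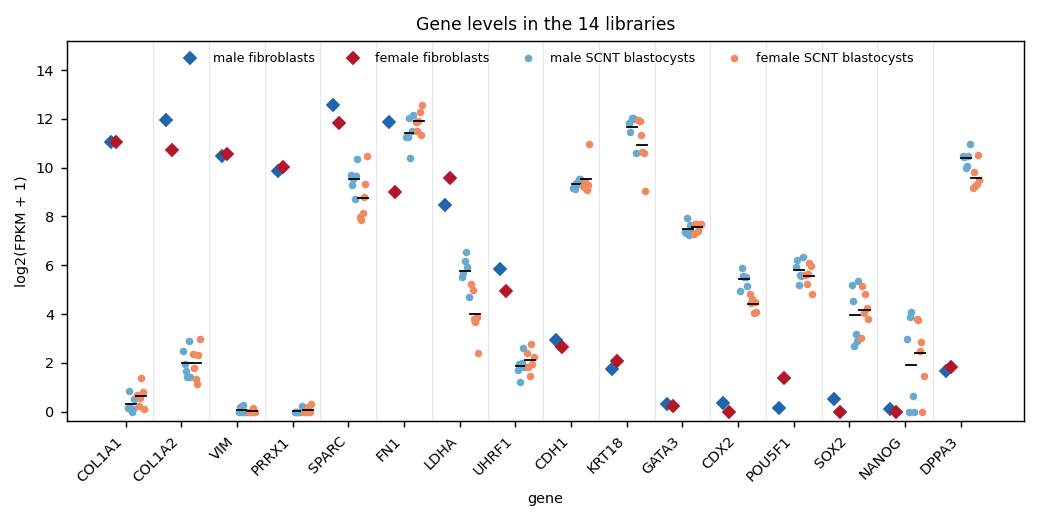
Levels of 16 genes in all 14 libraries, in log2(FPKM + 1) on the y axis: diamonds are the single fibroblast libraries, circles single SCNT-BLs, and bars the means of 6 embryos. COL1A1, VIM and PRRX1 fall to about 0, SPARC falls but stays high, the fibroblast libraries differ widely in FN1, and CDH1, KRT18, GATA3 and DPPA3 stand high in every embryo, whereas NANOG is at 0 in some embryos of each sex.

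Cell surface and signalling genes of fibroblasts fell in 30 of 36 cases, with none higher and 14 silenced (median difference -3.49). GREM1, a secreted antagonist of bone morphogenetic proteins, stood at 1910 FPKM in male fibroblasts and 534 FPKM in female ones, at 0 to 0.0909 FPKM in the 12 SCNT-BLs (-9.97 ± 0.35), with all 6 female embryos at 0. EMP3, a membrane protein that stood in no list but among the 12 steepest falls, had 1209 and 2761 FPKM in male and female fibroblasts and 0 to 6.29 FPKM (median 0.212) in male and 0 to 0.134 FPKM (median 0) in female SCNT-BLs (-10.31 ± 0.73). In EMP3, 1 male embryo stood above the rest, and all were far below the fibroblasts. THY1, a surface antigen by which fibroblasts are sorted, stood at 270.4 FPKM in male fibroblasts and 604 FPKM in female ones and at 0 to 1.01 FPKM (median 0.378) in male and 1.23 to 6.75 FPKM (median 2.14) in female SCNT-BLs (-7.46 ± 0.48). Male embryos had less THY1 than female ones, and neither overlapped the fibroblasts. S100A4, a calcium-binding protein of motile cells, was listed at 0 in all SCNT-BLs, with 24.2 FPKM in male fibroblasts and 106 FPKM in female ones. The growth factors FGF7 (-6.70) and HGF (-4.92), the chemokine CXCL12 (-6.87), the receptor kinase AXL (-7.56) and the membrane proteins CAV1 (-6.60) and CD44 (-6.63) were lower, as was the TGF-beta and YAP target CTGF (-5.27). Of the 2 platelet-derived growth factor receptors, PDGFRB was lower (-5.31) and PDGFRA, which primitive endoderm cells also use, was not called (adjusted p = 0.13), with 145 FPKM in male fibroblasts and 77.2 FPKM in female ones and 27.5 to 119 FPKM (median 66.5) in male and 17.8 to 71 FPKM (median 57.9) in female SCNT-BLs.

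UCHL1, a deubiquitinase abundant in oocytes and neurons, was the 1 member of the oocyte list that fell, and was among the 12 steepest falls. It had 1549 and 1741 FPKM in male and female fibroblasts and 0 to 1.83 FPKM (median 0.128) in male and 0 to 13.9 FPKM (median 0.0941) in female SCNT-BLs (-9.78 ± 0.93). The other 16 oocyte genes tested were not called in either direction (median difference of the list 0.25), though under median centring the whole list had 1 lower and 2 higher, and without the male fibroblasts 2 of 18 lower and 1 higher.

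Epithelial genes were the largest group that rose. Of 37 genes of cell junctions, polarity and simple epithelia tested, 30 were higher and none lower, 15 of them activated, with a median difference of 4.16. CDH1, the adherens junction protein E-cadherin, stood at 6.75 FPKM in male fibroblasts and 5.21 FPKM in female ones and at 552 to 746 FPKM (median 649) in male and 538 to 1976 FPKM (median 617) in female SCNT-BLs, a difference of 6.64 ± 0.37 with adjusted p = 7.4e-10. EPCAM, an adhesion molecule of epithelia, stood at 0 FPKM in male fibroblasts and 0.112 FPKM in female ones and at 97.4 to 129.6 FPKM (median 118) in male and 76.9 to 158 FPKM (median 90.0) in female SCNT-BLs (6.68 ± 0.27). Both fibroblast libraries held some CDH1 but next to no EPCAM, and all embryos lay above them in both genes. KRT18 and KRT8, the paired keratins of simple epithelia, were the most abundant of the group. KRT18 had 2.38 and 3.18 FPKM in male and female fibroblasts and 1540 to 4233 FPKM (median 3848) in male and 523 to 3992 FPKM (median 2083) in female SCNT-BLs (9.37 ± 0.59). It had the largest rise of all genes, ranked by the smaller of the male and female differences. KRT8 had 2.02 and 17.1 FPKM in male and female fibroblasts and 1246 to 2876 FPKM (median 2239) in male and 934 to 2860 FPKM (median 1860) in female SCNT-BLs (8.04 ± 0.53). Both keratins have processed copies in mammalian genomes with which reads may be shared. Among the claudins, which seal tight junctions, CLDN6 stood at 0.341 FPKM in male fibroblasts and 0.14 FPKM in female ones and at 250.2 to 340.5 FPKM (median 275) in male and 101 to 233 FPKM (median 202) in female SCNT-BLs (7.50 ± 0.28), and CLDN4 was higher as well (6.89). The desmosomal protein DSP (7.05) and the tight junction proteins OCLN (3.58) and TJP1 (2.00, not called without the female fibroblasts) were higher. JUP (1.60, adjusted p = 0.0069) and PARD3 (0.87, adjusted p = 0.0053) passed the adjusted p without reaching 1 in both sexes.

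Transcription factors of the trophectoderm were higher in 12 of 20 cases, 5 of them activated, and lower in 1 (median difference 1.73). GATA3, which opens trophoblast genes, stood at 0.259 FPKM in male fibroblasts and 0.17 FPKM in female ones and at 148 to 246 FPKM (median 165) in male and 154 to 207 FPKM (median 200.3) in female SCNT-BLs, a difference of 7.24 ± 0.22 with adjusted p = 2.4e-12. CDX2, given above, differed by 4.75 ± 0.29, and its male embryos lay above its female ones. MSX2, a homeobox factor of placenta, had 2.59 and 3.41 FPKM in male and female fibroblasts and 81.9 to 154 FPKM (median 121) in male and 94.7 to 1030 FPKM (median 154) in female SCNT-BLs (5.37 ± 0.59). All embryos lay above the fibroblasts in the 3 genes. GRHL1 (6.58), GRHL2 (4.99), TFAP2C (4.48) and KLF5 (4.23) rose too, GRHL1 and GRHL2 as activated genes. TEAD4, the partner of YAP at the top of this network, was already at 11.6 FPKM in male fibroblasts and 14.2 FPKM in female ones and rose by 1.73 on the log2 scale, a call that did not hold without the female fibroblasts or without male SCNT-BL replicate 2. PPARG, a nuclear receptor used in adipocytes and in later trophoblast, was the 1 member that fell, from 38 FPKM in male fibroblasts and 27.1 FPKM in female ones to 3.1 to 12.3 FPKM (median 7.49) in male and 1.74 to 8.85 FPKM (median 2.76) in female SCNT-BLs (-2.48 ± 0.51). ID2 was not called (-0.64, adjusted p = 0.53).

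Ruminant trophoblast secretes interferon tau, by which the mother recognizes the pregnancy. Its gene IFNT stood at 0.318 FPKM in male fibroblasts and 0.261 FPKM in female ones and at 56.5 to 235 FPKM (median 152) in male and 21.3 to 222 FPKM (median 144) in female SCNT-BLs (6.44 ± 0.73, adjusted p = 3.0e-06). Of 10 trophoblast secreted genes tested 5 were higher and none lower, 3 of them activated (median difference 1.96), and 3 were higher without the male fibroblasts. PAG2, a pregnancy-associated glycoprotein, was listed at 0 in both fibroblast libraries and stood at 10.8 to 600.5 FPKM (median 114) in male and 23.3 to 176 FPKM (median 83.4) in female SCNT-BLs, an uneven level across embryos. PTGS2, which makes prostaglandins, was higher (5.31), and SSLP1 was higher (1.80) but not without the male fibroblasts. TKDP1, a trophoblast Kunitz domain protein listed at 0 in both fibroblast libraries, was not called (adjusted p = 0.074), its levels running from 0.36 to 23.9 FPKM in the 12 SCNT-BLs. IFNT and PAG2 belong to families of near-identical genes whose reads may be shared.

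Pluripotency genes rose in 13 of 18 cases and fell in none, 9 of them activated (median difference 4.10). DPPA3, a maternal and germ line factor that protects maternal DNA methylation, stood at 2.15 FPKM in male fibroblasts and 2.59 FPKM in female ones and at 1007 to 1986 FPKM (median 1395) in male and 569.8 to 1460 FPKM (median 684) in female SCNT-BLs, a difference of 8.25 ± 0.35 with adjusted p = 3.3e-11. SOX2, the partner of POU5F1, stood at 0.444 FPKM in male fibroblasts and 0 FPKM in female ones and at 5.49 to 40.4 FPKM (median 15.1) in male and 7 to 34.8 FPKM (median 16.8) in female SCNT-BLs (3.81 ± 0.66), and POU5F1 itself differed by 4.93 ± 0.38. NANOG, the third core factor, was not called (2.12 ± 1.09, adjusted p = 0.14), with 0.0664 and 0 FPKM in male and female fibroblasts and 0 to 15.9 FPKM (median 3.71) in male and 0 to 12.9 FPKM (median 5.44) in female SCNT-BLs. Some embryos of each sex did not exceed the fibroblasts of that sex. Under median centring NANOG passed (2.64, adjusted p = 0.047 in limma). OTX2 (6.74), ESRRB (5.70), TFCP2L1 (5.14), PRDM14 (4.68) and DPPA4 (4.50) were activated, as were SALL4 and DPPA2, both listed at 0 in the fibroblast libraries and present at 5.71 to 53.7 FPKM and 10.9 to 60.9 FPKM in the 12 SCNT-BLs.

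The genes of the primitive endoderm did not move together. Of 13 tested 3 were higher, 2 lower and 8 not called, and the median difference of -0.31 became 0.21 under median centring. Over all genes tested 11.0% were higher and 20.0% lower, so counts this small say little of the list as a set. Without the female fibroblasts 4 of 12 were lower and 2 higher. GATA6, the factor that starts this lineage and is also present in bovine trophectoderm, stood at 0.0906 FPKM in male fibroblasts and 0.0745 FPKM in female ones and at 131 to 242 FPKM (median 208) in male and 113 to 256 FPKM (median 145) in female SCNT-BLs (7.31 ± 0.29). HNF4A, a factor of endoderm and of trophoblast in cattle, was activated (4.37). RBP4, the retinol carrier of yolk sac and liver, fell instead, from 458 FPKM in male fibroblasts and 305 FPKM in female ones to 0 to 0.278 FPKM (median 0) in male and 0 to 8.06 FPKM (median 0.072) in female SCNT-BLs (-7.98 ± 0.79), and SERPINH1, the collagen chaperone, was lower (-4.98). Both are also made by fibroblasts.

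Some of the 12 genes with the largest rise belonged to no list. UGT1A1, which conjugates bilirubin and steroids to glucuronic acid, stood at 0.331 FPKM in male fibroblasts and 0.228 FPKM in female ones and at 454 to 758 FPKM (median 564) in male and 187 to 287 FPKM (median 258) in female SCNT-BLs (8.20 ± 0.26). ENPEP, a membrane aminopeptidase that cleaves angiotensin, had 1.17 and 1.45 FPKM in male and female fibroblasts and 358 to 929 FPKM (median 603) in male and 382 to 707 FPKM (median 532) in female SCNT-BLs (7.91 ± 0.31). In both of them every embryo lay far above both fibroblast libraries. BIN2, a membrane-shaping protein known from blood cells, had 0.205 and 0.0841 FPKM in male and female fibroblasts and 126 to 797 FPKM in the 12 SCNT-BLs (7.88 ± 0.52). TRPV5, an epithelial calcium channel, had 0.331 and 0.233 FPKM in male and female fibroblasts and 122 to 486 FPKM in the 12 SCNT-BLs (7.46 ± 0.42). F2RL1, a protease-activated receptor, had 0.0471 and 0.0774 FPKM in male and female fibroblasts and 89.1 to 251 FPKM in the 12 SCNT-BLs (7.30 ± 0.36). These 3 genes and UGT1A1 met the limits for activated, and ENPEP did not.

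Of 19 ion pumps, water channels and transporters tested 9 were higher, 5 of them activated, and 3 lower (median difference 1.47). SLC34A2, a sodium phosphate cotransporter, rose most, from 0.274 and 0.15 FPKM in male and female fibroblasts to 78.1 to 537 FPKM (median 179) in male and 228 to 795 FPKM (median 448) in female SCNT-BLs (8.01 ± 0.62). ATP1B1, a subunit of the sodium pump that fills the cavity, was not called (-0.96, adjusted p = 0.16). AQP3, a water channel, was activated (5.35), whereas AQP1, the water channel of fibroblasts and endothelium, was lower (-2.44), a call lost under both scalings. Of the glucose transporters, SLC2A3 had 14.7 and 8.3 FPKM in male and female fibroblasts and 497 to 1072 FPKM (median 686) in male and 275 to 531 FPKM (median 495) in female SCNT-BLs (5.49 ± 0.30), and SLC2A1 was higher as well (2.33). SLC16A3, which exports lactate, stood at 17.6 FPKM in male fibroblasts and 1.36 FPKM in female ones and was not called, its female difference being under 1. SLC7A11, the cystine transporter, was silenced (-4.04).

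Most of the enzymes that break down glucose fell. Of 18 enzymes of glycolysis and its control tested 13 were lower and 1 higher (median difference -2.06), and 9 were lower and 1 higher under median centring. TPI1, triosephosphate isomerase, stood at 679.6 FPKM in male fibroblasts and 638 FPKM in female ones and at 4.37 to 46.2 FPKM (median 8.46) in male and 2.68 to 14.6 FPKM (median 5.6) in female SCNT-BLs (-6.21 ± 0.66, adjusted p = 1.5e-06). LDHA, which turns pyruvate to lactate, had 354 and 758 FPKM in male and female fibroblasts and 25 to 91.7 FPKM (median 55.2) in male and 4.29 to 36.9 FPKM (median 13.3) in female SCNT-BLs (-4.14 ± 0.66). PKM2, the gene of muscle pyruvate kinase, was among the 5 most abundant genes of female fibroblasts, at 4163 FPKM in male fibroblasts and 6076 FPKM in female ones, and stood at 256 to 369 FPKM (median 290.5) in male and 438 to 717 FPKM (median 495) in female SCNT-BLs (-3.67 ± 0.24). No embryo reached a fibroblast library in these 3 genes. PFKP (-5.25), ENO1 (-3.78), ALDOA (-3.60) and HK1 (-2.71) were lower, and GAPDH was lower by less (-1.32) and lost its call under both scalings. GPI, which starts the pathway after phosphorylation, was not called (-0.32 ± 0.29, adjusted p = 0.42) at 1402 FPKM in male fibroblasts and 1474 FPKM in female ones and 1036 to 1602 FPKM (median 1357) in male and 750.5 to 1352 FPKM (median 962) in female SCNT-BLs, and the sign of its difference turned under both scalings. HK2, the inducible hexokinase, rose from 6.23 FPKM in male fibroblasts and 6.53 FPKM in female ones to 24.8 to 41.1 FPKM (median 33.8) in male and 21.6 to 49.1 FPKM (median 36.1) in female SCNT-BLs (2.23 ± 0.28).

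**Figure D4:**
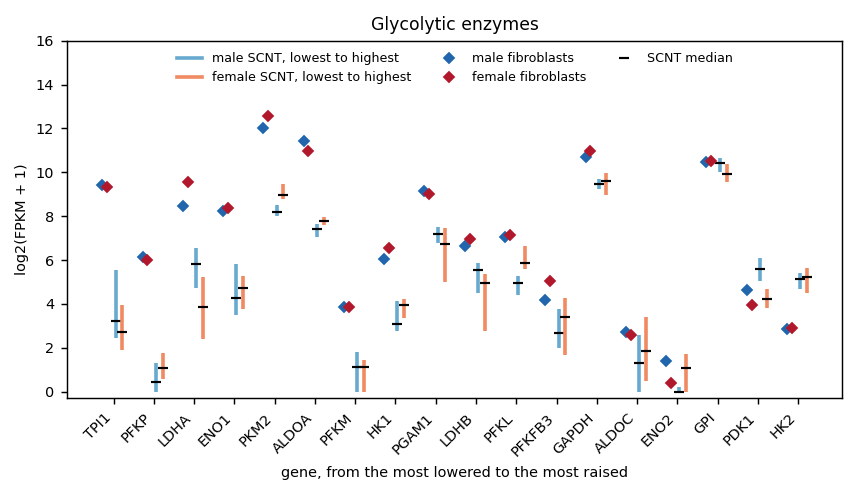
Glycolytic enzymes ordered along the x axis by their difference, with log2(FPKM + 1) on the y axis: diamonds are the 2 fibroblast libraries, lines run from the lowest to the highest of 6 SCNT-BLs of a sex, and dashes are medians. From TPI1 to GAPDH the fibroblast diamonds lie above the lines of their sex, and HK2 at the right lies below them.

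Genes that write and read DNA methylation and histone H3 lysine 9 methylation were lower in 4 of 19 cases, close to the 20.0% of all genes, and higher in 1 (median difference -0.56). Under median centring 4 were lower and 3 higher (median -0.04), and without the male fibroblasts 6 were lower and 1 higher. UHRF1, which brings the maintenance methyltransferase to replicated DNA, stood at 56.7 FPKM in male fibroblasts and 29.9 FPKM in female ones and at 1.3 to 5.12 FPKM (median 2.69) in male and 1.73 to 5.83 FPKM (median 3.29) in female SCNT-BLs, a difference of -3.41 ± 0.42 with adjusted p = 7.6e-06. DNMT1, that methyltransferase, had 57.2 and 41.5 FPKM in male and female fibroblasts and 6.03 to 13.6 FPKM (median 11.9) in male and 7.66 to 14.7 FPKM (median 11.7) in female SCNT-BLs (-2.08 ± 0.33). All embryos lay below both fibroblast libraries in UHRF1 and in DNMT1. UHRF2 (-2.22, lost without the female fibroblasts) and the demethylase KDM4B (-1.83) were lower, and the methyltransferase SETDB2 was higher (2.18). Of 20 imprinted genes, whose expression follows parental origin, 7 were lower and 1 higher (median difference -0.80). Under median centring these counts were 5 and 2 (median -0.28), and without the male fibroblasts 5 and 0 of 19. SGCE (-6.54), PEG10 (-3.32) and PLAGL1 (-3.07) were silenced, GNAS was lower from a high level (-2.22), and NDN was the higher one (2.16, not called without the male fibroblasts).

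Most genes of replication and mitosis were not called. Of 30 genes of replication and mitosis 7 were higher and none lower (median difference 0.33), while 11 were higher without the male fibroblasts, and 5 higher and 3 lower without the female ones. Among the 7 were the cyclins CCNA2 (2.16) and CCNB1 (1.86) and the mitotic factor FOXM1 (2.05, lost without the female fibroblasts or male SCNT-BL replicate 6). Of 17 genes of cyclin D and of CDK inhibitors, which gate entry into the cycle in somatic cells, 9 were lower and 1 higher (median difference -1.68). CCND1 (-3.20) and CDKN2C (-3.80) were silenced, and CDK6 (-4.26) and CDKN2B (-3.54) were lower. CDKN1A (-2.14) and RB1 (-2.68) were lower but not without the male fibroblasts. CDKN2A, the 1 gene that was higher (1.28), lost its call without the male fibroblasts and without any 1 of female SCNT-BL replicates 2, 3, 4 and 5.

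MHC class I and the genes that process its peptides were lower in 11 of 15 cases and higher in none, 4 of them silenced (median difference -2.56). BOLA-A, a classical class I heavy chain, had 43.3 and 40.3 FPKM in male and female fibroblasts, was listed at 0 in all 6 male SCNT-BLs and ran from 0 to 0.424 FPKM (median 0.0783) in female SCNT-BLs (-5.33 ± 0.23). BOLA-NC1, a non-classical one, differed by -5.05, the immunoproteasome subunit PSMB8 by -4.79 and the peptide editor TAPBP by -4.64. Class I genes are close relatives whose reads may be shared.

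Large groups that every cell uses had members called in both directions, and their counts rested on the choice of fibroblast library. Over all genes tested 20.0% were lower and 11.0% higher. The counts for oxidative phosphorylation and heat shock chaperones lay near these shares, and no list was tested against them. Of 72 subunits of oxidative phosphorylation 12 were lower and 8 higher (median difference 0.14), and 4 were lower and 10 higher under median centring. Without the male fibroblasts these counts were 15 and 6, and without the female fibroblasts 2 and 13. Of 70 cytosolic ribosomal proteins 17 were lower and 3 higher (median difference -0.46), but 8 were lower and 11 higher under median centring, where the median was 0.06. Without the male fibroblasts 22 ribosomal protein genes were lower and 1 higher, and without the female fibroblasts 9 were lower and 8 higher, with a median difference of 0.14. Of 19 genes of cholesterol synthesis and uptake 3 were lower and 4 higher (median difference 0.47). Of 20 heat shock chaperones 5 were lower and 2 higher (median difference -0.44, and 0.08 under median centring), with 4 higher without the male and 1 higher without the female fibroblasts. CRYAB, a small heat shock protein of muscle and lens, was silenced, at 64.9 FPKM in male fibroblasts and 183 FPKM in female ones and 0 to 1.58 FPKM (median 0) in male and 0 to 9.45 FPKM (median 0) in female SCNT-BLs (-6.29 ± 0.70). HSPB6 (-4.58) and HSPA5, the chaperone of the secretory pathway (-2.90), were lower, and HSP90AA1 was higher (1.05, under the limit without female SCNT-BL replicate 4).

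**Figure D5:**
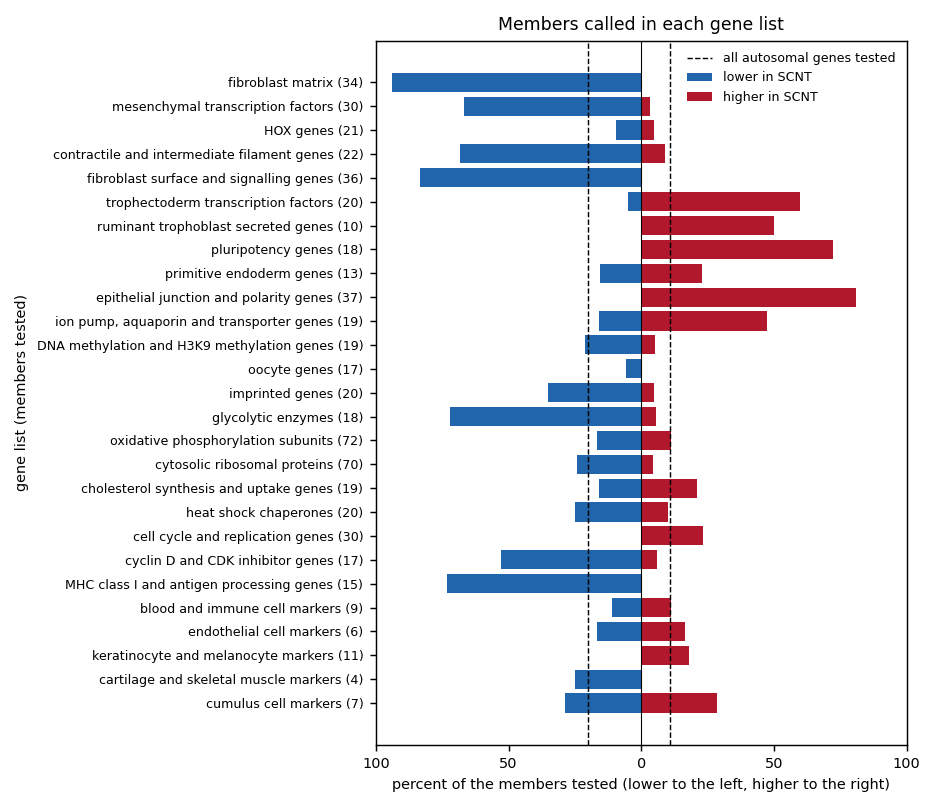
For each gene list, bars show the percent of the members tested that were lower (to the left) or higher (to the right) in SCNT-BLs, and the dashed lines mark the 20.0% and 11.0% of all autosomal genes. The fibroblast lists and glycolytic enzymes reach far to the left and the epithelial, pluripotency and trophectoderm lists far to the right.

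Markers of other cell types were checked. A skin culture can hold keratinocytes, pigment cells, vessels or blood cells, and an embryo can carry cumulus cells. These lists are short, and their counts are to be read beside the 20.0% lower and 11.0% higher of all genes tested. KRT5 and KRT14, the keratins of basal keratinocytes, stood at 0.461 FPKM in male fibroblasts and 60.3 FPKM in female ones and at 0.06 FPKM in male fibroblasts and 9.87 FPKM in female ones, so that both were above 1 FPKM in the female culture and below it in the male one. KRT5 was at 16.4 to 484 FPKM (median 209.7) in male and 48.8 to 136 FPKM (median 112) in female SCNT-BLs, and its adjusted p passed (3.54 ± 1.17, adjusted p = 0.023) but the female difference did not reach 1, while KRT14 was at 0 to 0.21 FPKM in the 12 SCNT-BLs. Of 11 keratinocyte and melanocyte markers 2 were higher and none lower, but 2 were lower and 2 higher without the male fibroblasts, and 1 lower and 2 higher of 9 without the female ones. This list had summed levels of 40.6 FPKM in male and 84.2 FPKM in female fibroblasts and 74.3 to 526 FPKM in SCNT-BLs. Of 9 blood and immune markers tested 1 was lower and 1 higher (none lower and 2 higher under median centring), the latter CD68 (3.22), a lysosomal protein, and their summed levels were 7.45 FPKM in male and 12.8 FPKM in female fibroblasts and 21.5 to 64.4 FPKM in SCNT-BLs. The endothelial markers divided in the same way, 1 lower (ERG, -3.05, with 2 lower without the male fibroblasts) and 1 higher of 6, the latter being PECAM1 at 2.53 FPKM in male fibroblasts and 0.909 FPKM in female ones and 60.4 to 129 FPKM (median 104) in male and 61.8 to 95.7 FPKM (median 74.9) in female SCNT-BLs (5.05 ± 0.29). Of 4 cartilage and muscle markers tested 1 was lower (ACAN, the proteoglycan aggrecan, -3.83). Of 7 cumulus cell markers 2 were lower, GREM1 and HAS2 (-2.87), and 2 higher, FSHR (3.15) and CYP19A1 (3.39), which steroid-producing cells share. Without the female fibroblasts 4 of the 7 cumulus markers were lower (median difference -1.45, beside -0.72 with both and 0.44 over 5 markers without the male ones). The part of any other cell type in the differences above was not tested.

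A small share of genes lay on opposite sides in the sexes. In 171 genes (1.13% of those tested) the male fibroblasts lay above all 6 male SCNT-BLs while the female fibroblasts lay below all 6 female ones, and in 160 genes (1.06%) the order was the reverse. Both shares are small beside the 26.3% and 15.3% on the same side in both sexes. This is 1 library against 1, so it has no replicate check on the fibroblast side. At least 1 in both sexes was reached by 5111 genes, 5009 in the same direction and 102 in opposite directions. DPM3, a subunit of dolichol phosphate mannose synthase, was listed at 0 in male and had 106 FPKM in female fibroblasts, with 1.24 to 8.71 FPKM (median 2.11) in male and 0 to 16 FPKM (median 5.6) in female SCNT-BLs. DPM3 embryos lay on one side of the male and on the other side of the female fibroblasts.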

How the data were processed

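Single whole blastocysts and donor fibroblasts had been lysed, amplified from minute amounts of RNA and sequenced. Per the labels and the study's methods, the authors trimmed reads with Trim Galore, aligned them with TopHat to UMD3.1 and estimated levels of known transcripts with Cufflinks, with Cuffdiff named beside it (versions not given in the sources used here). They deposited 1 table of FPKM for 22628 rows and 37 libraries, with no counts, so no counting interval could be given. The study lists reads per library, which are not repeated here. Low FPKM values put the relative depth at 0.382 to 1.21 in SCNT-BLs and at 1.14 and 0.693 in male and female fibroblasts, taking male SCNT-BL replicate 1 as the reference. Amplification from few cells can drop weak transcripts, and a value of 0 may be a failed estimate.

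Columns were matched to samples by their letters for sex and source and by replicate number. Rows in the X chromosome block (999) and 19 others that ARS-UCD2.0 places on X or Y were left out, leaving 21610 autosomal rows. With limma 3.58.1 in R 4.3.3, log2(FPKM + 1) of the 14 libraries was fitted with sex and SCNT as terms and a trended prior variance, over rows with a mean over 0.1 FPKM, and p-values were adjusted by Benjamini-Hochberg over all 15762 of them. The fit was also run on simulated data. These gave the fibroblast libraries the spread between SCNT-BLs, so the run cannot speak for the spread between fibroblast cultures. Per-library counts were compared by an exact permutation test within sex. Nothing in the labels says whether embryos of a group came from separate rounds of culture, so p-values measure only the spread between these libraries.

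The compared libraries and the gene lists were chosen with earlier results of these data known. Named genes were the 12 per direction with the largest smaller sex-matched difference (symbols in 1 row, not starting with LOC), list members and markers, the 3 per direction with the most opposite sex-matched differences, and the 5 most abundant genes of each fibroblast library and of the SCNT-BL mean. Lists were counted over all their members tested, and the members given with values were picked with those values known. Members without a single autosomal row, or with a mean not over 0.1 FPKM, were left out. Thus 18 of 26 pluripotency, 10 of 18 trophoblast secreted and 21 of 39 HOX genes listed were tested. The mean takes in more SCNT-BLs than fibroblast libraries, so genes present in embryos alone pass it more easily. Some genes that these rules choose are not reported here. No genome was used and no sequence is shown. Alternatives were another pseudocount, other filters, median centring, quantile normalization, fits with other terms or all 37 libraries, and leaving out each library.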

Additional observations from a re-analysis of the deposited data

Results flagged for a closer look

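In 12 of 113 groups of 6 SCNT-BLs of one sex examined, 1 embryo stood apart from the other 5 by more than Dixon's 95% critical value. That value marks about 1 in 20 groups only where values are normally distributed. Gene levels were compared as log2(FPKM + 1) and library measures on their own scale, whereas the levels below are given in FPKM. Several groups lay near 0 FPKM, genes were picked with their values known, and the groups share embryos. The 12 can therefore not be set against that share.

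Female replicate 6 stood apart in 3 values. CDH1, E-cadherin, was at 1976 FPKM in it and at 538 to 678 FPKM in the other females. TPM1, a tropomyosin, was at 38.2 FPKM beside 93.1 to 138 FPKM. The genes called lower held 5.83% of its summed FPKM beside 6.85% to 7.34%. This embryo and female replicate 5 had the fewest genes over 1 FPKM, and the part of that in these values was not tested. Female replicate 5 had 4.09 FPKM of COL6A1, a collagen VI chain, beside 0.0527 to 0.373 FPKM.

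Among the other females, replicate 4 had 115 silenced genes over 1 FPKM beside 60 to 77, replicate 3 had 9.45 FPKM of the small heat shock protein CRYAB beside 0 to 1.25 FPKM, and replicate 1 stood apart in 2 genes. PKM2, pyruvate kinase, was at 717 FPKM in it beside 438 to 510 FPKM, and HOXC6 was at 0.353 FPKM beside 4.22 to 9.40 FPKM. All these values lie on the same side of the female fibroblasts as those of the other embryos.

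Among males, replicate 6 had 1.95 FPKM of FMOD, fibromodulin, beside 0 to 0.436 FPKM, and 1246 FPKM of KRT8 beside 2118 to 2876 FPKM. Replicate 1 had 1.58 FPKM of CRYAB, listed at 0 in the other males, and its 10 most abundant genes held 26.7% of the summed FPKM beside 14.8% to 18.6%.

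In 5 named genes the sexes moved in opposite directions, with every SCNT-BL of one sex above and every SCNT-BL of the other sex below the fibroblasts of its sex. These differences between the sexes were not tested, and sex, donor animal and flow cell cannot be told apart in them. UBE2S, a ubiquitin-conjugating enzyme of mitosis, differed by -2.06 in males and by 2.35 in females, with 10.3 FPKM in male and 1.10 FPKM in female fibroblasts. COX15, an enzyme of heme A synthesis, differed by -1.77 and 1.96. TMEM205, a membrane protein, differed by 2.23 in males and -2.57 in females, with 1.19 FPKM in male and 52.4 FPKM in female fibroblasts. DPM3 differed by 1.98 and -4.65, and LSMD1 by 3.23 and -1.96.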

How the results depend on the processing

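The counts of genes lower (2044 to 3281), higher (1518 to 2181, and 2775 under median centring), silenced (590 to 726, and 930 without the male fibroblasts) and activated (291 to 348) came from 26 alternatives, outside the one that sets no minimum difference, which gave 4062 lower and 2275 higher. Median centring kept 2044 of the 3024 genes called lower and all 1659 called higher. Leaving out 1 library gave 2791 to 3085 lower, 1518 to 1693 higher, 601 to 930 silenced and 291 to 348 activated genes. Without the male fibroblasts 2346 of the genes called lower and 1275 of those called higher kept their call, and without the female fibroblasts 2247 and 1175. For genes over 1 FPKM per library the difference ran from -1117 to -853.7 when 1 library was left out. The end values set 1 fibroblast library against SCNT-BLs of both sexes, and the p of 0.143, the smallest that the exact permutation test then allows, comes from the 7 libraries of the remaining sex. It was -969 at a limit of 0.1 FPKM (exact permutation p = 0.0408) and -1041 at a limit of 5 FPKM.

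Of 147 genes named with values, which leave out SNAI1, 133 were called, and 115 of these kept their call under every setting. GPI turned sign under median centring (0.20) and quantile normalization (0.27), and FN1 without the female fibroblasts (-0.44, beside 2.93 without the male ones). Leaving out a fibroblast library ended 13 calls, and leaving out a single SCNT-BL ended calls in 4 genes. The cause was not tested in any of these. Fitting all 37 libraries, dropping the sex term or the trend, and adjusting over autosomal rows alone changed no call among these genes. No paired analysis was possible because 1 fibroblast library stands against 6 SCNT-BLs in each sex, so no embryo has a fibroblast library of its own. The table holds no counts, so a level near 0 cannot be told from a transcript missed at a library's depth.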

Other observations

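Among the most abundant genes, those of the cytoskeleton and of translation differed in how they moved. ACTB, cytoplasmic actin, was at 8146 and 5397 FPKM in male and female fibroblasts and at 3737 to 8043 FPKM in SCNT-BLs (difference -0.29 ± 0.39, adjusted p = 0.59 in limma). PABPC1, which binds the poly(A) tails of messenger RNA, was at 2290 and 1661 FPKM in male and female fibroblasts and at 4652 to 9969 FPKM in SCNT-BLs, above them in all 12 (2.06 ± 0.38, adjusted p = 0.00042 in limma). RPS2, a protein of the small ribosomal subunit, was at 6481 and 2471 FPKM in male and female fibroblasts and at 229 to 1054 FPKM in SCNT-BLs, below them in all 12 (-3.03 ± 0.46, adjusted p = 6.3e-05 in limma). Ribosomal protein genes have many processed copies, with which reads may be shared.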
